A study of Mus musculus with 12 samples.

Results

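Expression of 9 genes of the prostaglandin and leukotriene pathway was examined in mouse neutrophils, across low-density and high-density cells of tumour-bearing blood and cells of naive bone marrow. The genes were chosen by symbol, as the cyclooxygenases Ptgs1 and Ptgs2, the prostaglandin E synthase Ptges, the prostaglandin E receptors Ptger2 and Ptger4, the lipoxygenase Alox5 with its partner Alox5ap, the hydrolase Lta4h and the leukotriene B4 receptor Ltb4r1. All 9 had a row among the 23621 gene symbols of the count table, and all 9 were among the 10604 genes that passed the filter on low counts. The cells came from female Balb/c mice aged 8 weeks, and no genotype or treatment beyond the tumour is named in the labels. Low-density neutrophils (LDN, 4 libraries) and high-density neutrophils (HDN, 4 libraries) were taken from peripheral blood of mice carrying liver metastases. The Naive group (4 libraries) held bone marrow neutrophils of naive mice. The series' title places the study in breast cancer, and the comparisons address how the 2 blood fractions differ from each other and from bone marrow neutrophils.

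Eicosanoids are lipid signals made from arachidonic acid, which phospholipases cut from membrane lipids. In the prostaglandin branch a cyclooxygenase makes an unstable intermediate and a terminal synthase turns it into a product such as prostaglandin E2, which raises cyclic AMP in its target cells through the receptors EP2 and EP4. In the leukotriene branch arachidonate 5-lipoxygenase, helped by the membrane protein FLAP, makes leukotriene A4, and leukotriene A4 hydrolase turns it into leukotriene B4, a strong attractant of neutrophils that acts on the receptor BLT1.

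The libraries held 23181686 to 26456768 counted reads in LDN, 20049857 to 30044508 in HDN and 18113922 to 27741885 in Naive. Levels are given in CPM, the counts divided by the scaled library size in units of 1e6 reads, and 3 reads, the limit that a count of 0 allows, corresponded to 0.0954 to 0.153 CPM. Intervals and floors cover counting error only. All 10 neutrophil markers were detected in each group, with a summed level of 187648 to 247046 CPM in LDN, 76954 to 126912 CPM in HDN and 196661 to 229224 CPM in Naive. These markers did not move together: 6 were higher and 1 lower in LDN than in HDN, beside 26.0% and 20.3% of all tested genes. The granule protein genes Ngp, Camp and Ltf were 11.7-fold, 19.9-fold and 18.6-fold higher in LDN and had their highest means in Naive, as Ptges and Lta4h did, while the growth factor receptor gene Csf3r was 2.19-fold lower. Their part in the results was not tested. HDN replicate 7 stood apart with a scaling factor of 1.28, against 0.825 to 1.09 in the other 11 libraries. Tissue, tumour and a tag in the column names differ together between Naive and both blood groups and cannot be told apart. Since the labels do not tie libraries to animals, the p-values measure the spread between these libraries, which may be technical. In bulk RNA, fewer cells of a type and less RNA per cell cannot be told apart.

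LDN had more RNA of the leukotriene branch and of Ptges than HDN, and less of Ptgs2 and Ptger4. By edgeR's quasi-likelihood test at an adjusted p under 0.05, 5 of the 9 genes were higher and 2 lower in LDN than in HDN, 7 in all, and 6 did not overlap between the groups. Over all tested genes in that comparison 46.3% were called, 26.0% higher and 20.3% lower, and 39.2% did not overlap. The median log2 fold change of the 9 genes was 0.59, against 0.02 over all tested genes. HDN differed from Naive in 6 genes, 1 higher and 5 lower, with a median of -0.96 against 0.04 over all tested genes. There, 59.8% of all tested genes were called, 30.0% higher and 29.9% lower, and 53.3% did not overlap. Of the 9 genes, 6 did not overlap there. LDN differed from Naive in 7 genes, 2 higher and 5 lower, with a median of -0.72 against 0.02 over all tested genes. There, 54.2% of all tested genes were called, 27.4% higher and 26.8% lower, and 55.3% did not overlap. Of the 9 genes, 7 did not overlap there. Many genes differed in each comparison, and counts over 9 genes are too few to be set apart from these shares. The last 2 comparisons share the Naive libraries.

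**Figure D1:**
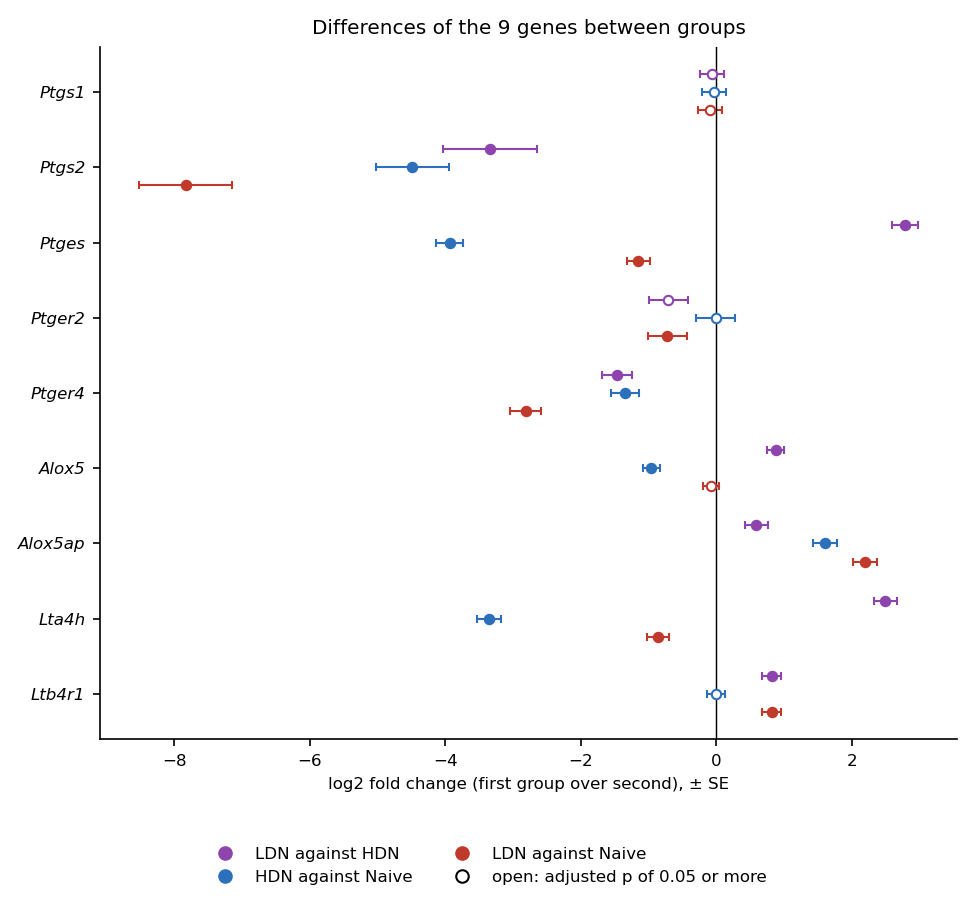
Log2 fold change of each of the 9 genes in the 3 comparisons, first group over second, with bars of ± 1 standard error and open circles for genes with an adjusted p of 0.05 or more. Ptges and Lta4h lie above 0 for LDN against HDN and below 0 in both comparisons with Naive, and Ptgs2 and Ptger4 lie below 0 in all 3.

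The 250 bases upstream of the annotated start of Ptgs2, Ptges and Lta4h are shown because these were the 3 genes with the largest differences between LDN and HDN, with Ptges and Lta4h sharing their order of groups. RefSeq sequences (GRCm38.p6) were found for 8 of the 9 genes and not for Alox5ap. Each is written 5′ to 3′ on the strand of its gene, Ptgs2 at chr1:150099781-150100030 on the plus strand, Ptges at chr2:30903298-30903547 on the minus strand and Lta4h at chr10:93453146-93453395 on the plus strand. Capitals mark matches to searched motifs.
Ptgs2: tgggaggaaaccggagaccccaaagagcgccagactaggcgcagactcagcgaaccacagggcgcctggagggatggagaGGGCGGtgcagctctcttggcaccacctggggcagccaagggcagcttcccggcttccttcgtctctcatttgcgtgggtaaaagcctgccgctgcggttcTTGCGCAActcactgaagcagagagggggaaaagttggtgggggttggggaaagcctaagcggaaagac
Ptges: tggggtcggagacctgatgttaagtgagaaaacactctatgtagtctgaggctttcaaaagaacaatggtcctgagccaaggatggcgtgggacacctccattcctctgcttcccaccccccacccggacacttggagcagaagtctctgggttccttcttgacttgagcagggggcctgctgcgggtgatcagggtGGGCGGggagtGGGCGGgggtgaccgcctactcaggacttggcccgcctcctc
Lta4h: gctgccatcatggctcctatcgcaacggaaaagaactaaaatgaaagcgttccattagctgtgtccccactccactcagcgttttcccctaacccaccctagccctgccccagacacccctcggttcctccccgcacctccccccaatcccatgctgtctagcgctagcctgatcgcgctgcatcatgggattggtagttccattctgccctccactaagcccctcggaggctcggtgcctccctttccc
Motifs were searched on both strands, and among the 32851 upstream windows of this length in the RefSeq table, a C/EBP motif (TTGCNNAA) was in 9.56%, a GC box (GGGCGG) in 32.7%, an AP-1 motif (TGANTCA) in 6.75%, an E-box (CACGTG) in 6.02%, a TATA box (TATAAA) in 12.4%, an NF-kB motif in 4.11%, a CRE (TGACGTCA) in 1.55% and a PU.1 core (GAGGAAGT) in 2.44%. Ptgs2 held a C/EBP match 69 to 62 bases upstream of the start, which reads the same on both strands, and a GC box 170 to 165 bases upstream. Ptges held 2 GC boxes, 53 to 48 and 42 to 37 bases upstream, that did not overlap. Lta4h held none of the 8 motifs in this window. The windows had a GC content of 61.6% in Ptgs2, 59.6% in Ptges and 58.8% in Lta4h, against a median of 52.4% over all windows. All 3 lay between the 5th and 95th percentiles of all windows, 34.8% and 73.6%. The matches describe letters and not binding.

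Ptgs2, the inducible cyclooxygenase known as COX-2, had the largest log2 fold change of the 9 genes, by size, in each of the 3 comparisons, though not in LDN against HDN without HDN replicate 7. It was nearly undetected in LDN, low in HDN and readily measured in Naive. LDN replicates 3, 4, 5 and 7 had 5, 2, 4 and 9 reads, or 0.209, 0.0923, 0.204 and 0.419 CPM. HDN replicates 3, 4, 5 and 7 had 42, 13, 44 and 144 reads, or 2.04, 0.413, 1.67 and 5.50 CPM. Naive replicates 1 to 4 had 45.8, 72.5, 48.1 and 48.2 CPM. The blood groups overlapped in 1 pair of libraries, LDN replicate 7 and HDN replicate 4, whereas the lowest Naive library lay far above every blood library. Ptgs2 was lower in LDN than in HDN (log2 fold change -3.34 ± 0.69, adjusted p = 0.00158), where the error of a log2 fold change is its standard error throughout. With so few reads in LDN, the ratio of summed reads is given as well, 20 reads in LDN against 243 in HDN, or 10.1-fold lower after scaling (95% exact interval 6.38 to 16.8, counting error only). Without HDN replicate 7 the log2 fold change was -2.50 (adjusted p = 0.00283), smaller in size than that of Ptges at 2.69. Ptgs2 was lower in HDN than in Naive (-4.49 ± 0.54, adjusted p = 7.40e-06), and -5.32 without HDN replicate 7. It was lower in LDN than in Naive (-7.83 ± 0.69, adjusted p = 7.14e-07). From summed reads, it was 236.7-fold lower in LDN than in Naive, with an interval of 153 to 388.

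Ptgs1, the constitutive cyclooxygenase COX-1, passed the test in none of the comparisons. It had 67.9, 88.7, 67.5 and 109.8 CPM in LDN, 67.2, 99.5, 79.7 and 102 CPM in HDN and 90.5, 77.2, 91.9 and 97.1 CPM in Naive. The 3 groups overlapped, and LDN and HDN libraries with the same number had similar levels. The log2 fold change was -0.06 ± 0.17 for LDN against HDN (adjusted p = 0.801), -0.03 ± 0.17 for HDN against Naive (adjusted p = 0.877) and -0.10 ± 0.17 for LDN against Naive (adjusted p = 0.671). Its standard errors of 0.17 leave room for modest differences either way. Gm43621 overlaps 3.8% of its exon bases on the opposite strand.

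Ptges, the inducible microsomal synthase that makes prostaglandin E2 next after the cyclooxygenases, was highest in Naive, intermediate in LDN and lowest in HDN. It had 6.60, 6.14, 5.46 and 5.91 CPM in LDN, 1.21, 0.890, 0.723 and 0.687 CPM in HDN and 13.3, 12.3, 14.1 and 13.7 CPM in Naive. No 2 groups overlapped, and the spread within each was small. Ptges was higher in LDN than in HDN by 6.89-fold (log2 fold change 2.79 ± 0.19, adjusted p = 4.16e-07). It was lower in HDN than in Naive by 15.3-fold (-3.93 ± 0.19, adjusted p = 2.15e-09). In LDN it was lower than in Naive by 2.22-fold (-1.15 ± 0.17, adjusted p = 6.21e-05).

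Ptger4, which encodes the prostaglandin E receptor EP4, was lowest in LDN, intermediate in HDN and highest in Naive. It had 2.25, 1.71, 2.30 and 1.91 CPM in LDN, 5.43, 5.40, 8.15 and 3.59 CPM in HDN and 15.0, 14.8, 13.1 and 14.6 CPM in Naive. No 2 groups overlapped, although HDN spread widely, from replicate 7 at the low end to replicate 5 at the high end. Ptger4 was lower in LDN than in HDN by 2.76-fold (-1.46 ± 0.23, adjusted p = 0.000180). Against Naive it was lower by 7.01-fold in LDN (-2.81 ± 0.23, adjusted p = 3.99e-07) and by 2.54-fold in HDN (-1.35 ± 0.21, adjusted p = 9.68e-05). Gm15937 overlaps 15.3% of the exon bases of Ptger4 on the opposite strand in GENCODE M21, and since the strand setting of the counting is not given, reads of the pair cannot be told apart.

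Ptger2, which encodes EP2, differed less. It had 11.4, 11.3, 16.0 and 9.40 CPM in LDN, 19.0, 17.4, 32.9 and 9.54 CPM in HDN and 20.7, 20.5, 19.5 and 18.7 CPM in Naive. HDN replicate 7 lay among the LDN libraries, and HDN replicate 5 was the highest of all 12. LDN was not called against HDN (-0.71 ± 0.29, adjusted p = 0.0568). That call depended on the setting, with an adjusted p of 0.00473 without HDN replicate 7 and of 0.0113 with the replicate number as a block. LDN lay below Naive with no overlap (-0.72 ± 0.29, adjusted p = 0.0471), a call that ended in 9 of the 12 fits that left out a library (adjusted p up to 0.0896, without LDN replicate 7). HDN against Naive gave -0.01 ± 0.28 (adjusted p = 0.977). Gm17173 and Gm49364 overlap 4.7% and 2.8% of its exon bases on the opposite strand.

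**Figure D2:**
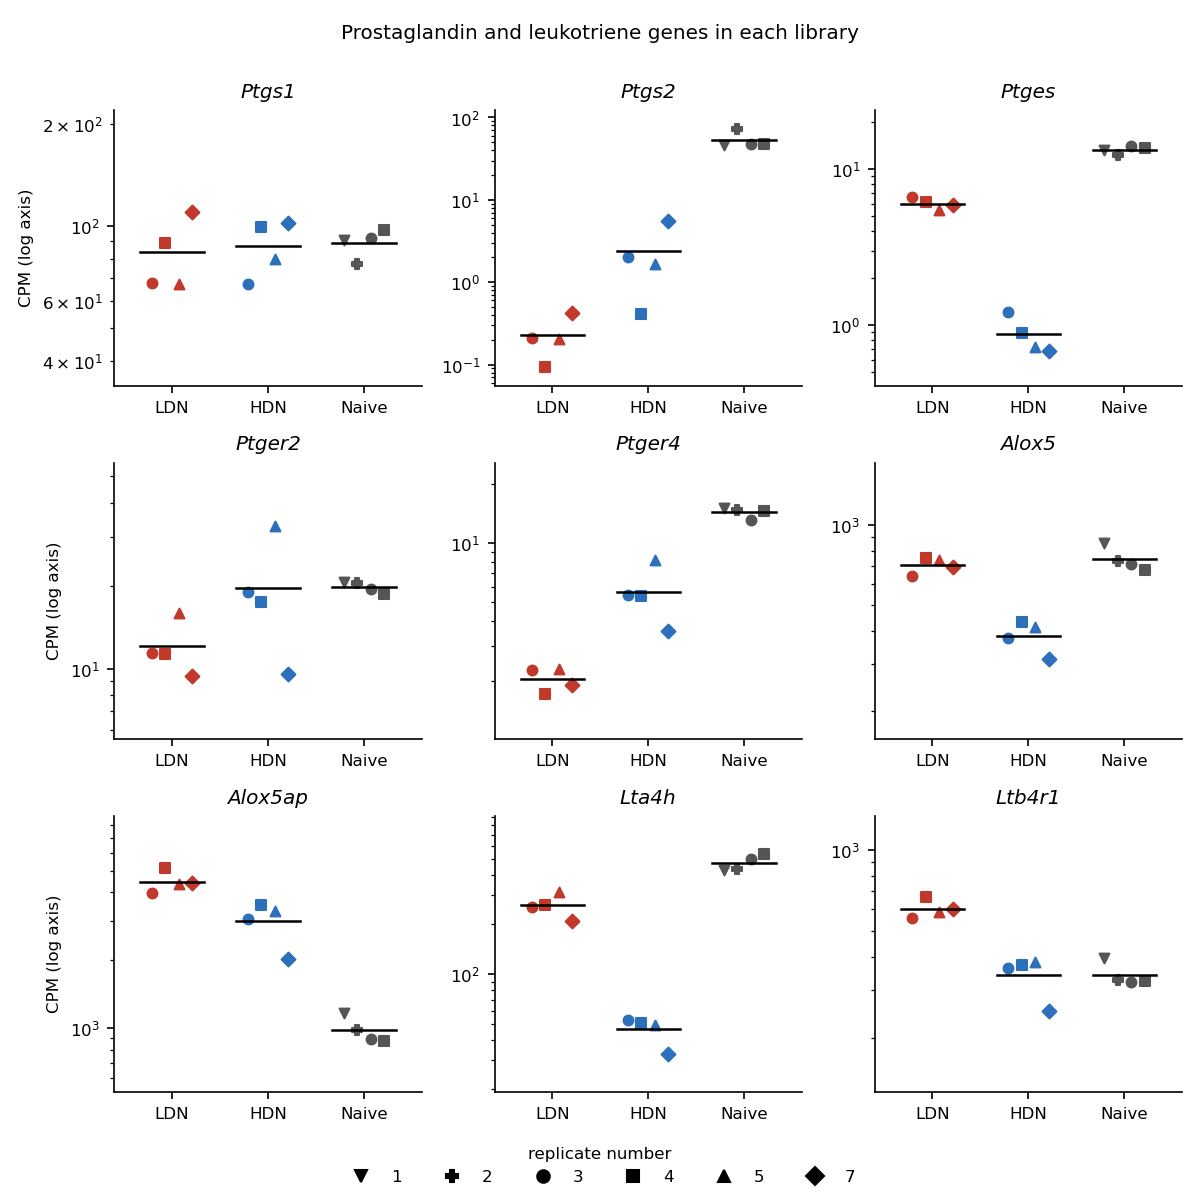
Level of each of the 9 genes in CPM on log axes, with 1 point for each library, a bar at the mean, and the groups LDN, HDN and Naive from left to right (4 libraries each). Ptges and Lta4h are lowest in all 4 HDN libraries, Alox5ap is lowest in Naive, and Ptgs2 spans from under 0.5 CPM in LDN to over 45 CPM in Naive.

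Alox5, the arachidonate 5-lipoxygenase that starts leukotriene synthesis, was lower in HDN than in both other groups. It had 640.4, 749.8, 737 and 694 CPM in LDN, 376, 431, 414 and 312 CPM in HDN and 854, 732, 714 and 679 CPM in Naive. All 4 HDN libraries lay below every other library, while LDN and Naive overlapped. Alox5 was higher in LDN than in HDN by 1.84-fold (0.88 ± 0.13, adjusted p = 9.66e-05). It was lower in HDN than in Naive by 1.94-fold (-0.96 ± 0.13, adjusted p = 1.71e-05). LDN against Naive gave -0.08 ± 0.12 (adjusted p = 0.618). When the 20 most abundant genes were kept out of the library sizes, LDN against Naive was called at -0.37 (adjusted p = 0.00138), and that scaling moved the median of all genes by -0.29.

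Alox5ap, which encodes FLAP, the membrane protein that presents arachidonic acid to the lipoxygenase, was higher in both blood groups than in bone marrow. It had 3971, 5145, 4382 and 4395 CPM in LDN, 3042, 3520.0, 3309.9 and 2017 CPM in HDN and 1163, 977, 893 and 879 CPM in Naive. All 8 blood libraries exceeded the highest Naive library, and every LDN library exceeded every HDN library. Alox5ap was higher in LDN than in HDN by 1.5-fold (0.59 ± 0.17, adjusted p = 0.0128). It was higher than in Naive by 4.57-fold in LDN (2.19 ± 0.18, adjusted p = 3.75e-07) and by 3.04-fold in HDN (1.60 ± 0.18, adjusted p = 3.14e-06). Gm19719 overlaps 13.3% of its exon bases on the opposite strand, with the same limit as for Ptger4.

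Lta4h, the hydrolase that makes leukotriene B4, shared the order of Ptges, with Naive highest and HDN lowest. It had 254, 262, 316 and 211 CPM in LDN, 53.1, 50.4, 48.9 and 32.6 CPM in HDN and 428, 433, 501 and 534 CPM in Naive. No 2 groups overlapped, and the gap between LDN and HDN was far wider than the spread within either. Lta4h was higher in LDN than in HDN by 5.64-fold (2.50 ± 0.17, adjusted p = 4.16e-07). It was lower in HDN than in Naive by 10.2-fold (-3.36 ± 0.18, adjusted p = 3.92e-09). It was lower in LDN than in Naive by 1.82-fold (-0.86 ± 0.16, adjusted p = 0.000549).

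Ltb4r1, which encodes the high-affinity leukotriene B4 receptor BLT1, was higher in LDN than in both other groups. It had 555, 666, 589 and 602 CPM in LDN, 362, 372, 384 and 251 CPM in HDN and 396, 327, 323 and 325 CPM in Naive. Every LDN library lay above every other library, and HDN and Naive overlapped. Ltb4r1 was higher in LDN than in HDN by 1.76-fold (0.82 ± 0.14, adjusted p = 0.000392) and than in Naive by 1.76-fold (0.81 ± 0.14, adjusted p = 0.000248). HDN against Naive gave 0.00 ± 0.14 (adjusted p = 0.986). Within HDN, replicate 7 was low, and without it that log2 fold change was 0.13 (adjusted p = 0.304).

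LDN and HDN libraries with the same replicate number deviated together across genes, and the differences within these 4 pairs kept 1 direction for 8 of the 9 genes. Ptges, Alox5, Alox5ap, Lta4h and Ltb4r1 were higher in LDN in 4 of 4 pairs, by 2.37 to 2.96 on the log2 scale for Ptges, 2.26 to 2.69 for Lta4h, 0.77 to 1.15 for Alox5, 0.38 to 1.12 for Alox5ap and 0.62 to 1.26 for Ltb4r1. Ptgs2, Ptger4 and Ptger2 were lower in LDN in 4 of 4 pairs, and for Ptger2 the smallest difference was only -0.02. Ptgs1 was higher in 2 and lower in 2. The 4 leukotriene genes, Ptges and Ptger4 did not overlap between LDN and HDN, so any pairing of libraries gives them 1 direction. Over all tested genes 39.2% did not overlap, and the counts of pairs add no support.

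Per kilobase of exon, with lengths from GENCODE M21, the leukotriene genes Alox5ap, Ltb4r1 and Alox5 led in every group. A length covers all annotated exons of a gene merged, not the transcript expressed, so the order between genes depends on that choice. Alox5ap was first at 3150.4 ± 345 CPM per kilobase in LDN, 2093 ± 469 in HDN and 689 ± 92.1 in Naive (SD, n = 4 each), followed by Ltb4r1 at 433 in LDN, 245 in HDN and 246 in Naive. Alox5 came next at 172 in LDN, 93.3 in HDN and 181 in Naive. Below them the order changed, with Lta4h at 42.7 in LDN, 7.58 in HDN and 77.7 in Naive, and Ptgs1 at 21.5 in LDN, 22.4 in HDN and 23.0 in Naive. Lta4h thus stood above Ptgs1 in LDN and Naive, and below it in HDN. Ptgs2 was last in LDN at 0.0504 CPM per kilobase and second to last in HDN at 0.525, while in Naive it reached 11.7 and stood above both prostaglandin receptors and Ptges. Ptges was last in HDN at 0.223.

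**Figure D3:**
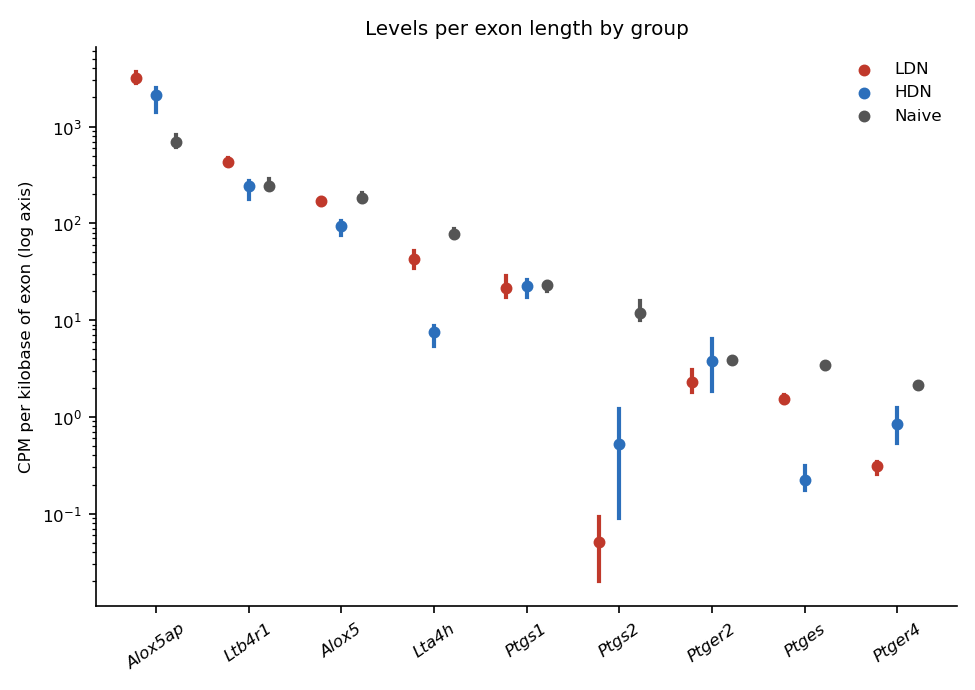
Mean level of each of the 9 genes per kilobase of exon on a log axis, for LDN, HDN and Naive (4 libraries each), with lines over the range of the libraries. Alox5ap, Ltb4r1 and Alox5 hold the top 3 places in every group, and Ptgs2 is at the end of the order in LDN and in its middle in Naive.

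Other genes of the pathway were taken from a list of 48, chosen with earlier results of these data known, of which 47 had a row and 25 were tested. In LDN against HDN 14 were higher and 6 lower, 20 in all, with a median log2 fold change of 0.50. Over all tested genes 46.3% were called there, 26.0% higher and 20.3% lower. In HDN against Naive 9 were higher and 12 lower (median -0.30), beside 59.8% of all tested genes, 30.0% higher and 29.9% lower. In LDN against Naive 7 were higher and 6 lower (median -0.09). So 13 of the 25 were called, close to the 54.2% of all tested genes. The counts by step of the pathway below cover too few genes to be set apart from these shares. Abcc1, Mgst2 and Tbxas1 passed the test in all 3 comparisons in the order of Ptges and Lta4h, with Naive highest and HDN lowest. Ptgir did as well, but its call in LDN against Naive (-0.71 ± 0.26, adjusted p = 0.0323) was lost in 4 of the 12 fits that left out a library (adjusted p up to 0.0669).

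Of the arachidonate release genes, 2 of 3 tested were higher in LDN than in HDN, beside 26.0% of all tested genes. Pla2g4a, the cytosolic phospholipase A2, averaged 5.28 ± 3.40 CPM in LDN and 1.91 ± 0.778 CPM in HDN (SD, n = 4 each, 1.47 ± 0.44, adjusted p = 0.0155), but the groups overlapped. Replicates 3, 4, 5 and 7 had 7.85, 1.85, 8.53 and 2.89 CPM in LDN and 1.79, 1.05, 1.87 and 2.94 CPM in HDN. The call was lost without LDN replicate 3 (adjusted p = 0.0703), without LDN replicate 5 (adjusted p = 0.0733) and with only the 8 libraries of the 2 groups (adjusted p = 0.0547). Pla2g4a was also lower in HDN than in Naive, which averaged 6.44 ± 1.18 CPM (-1.75 ± 0.44, adjusted p = 0.00373). Pla2g6, the calcium-independent phospholipase A2, was higher in LDN than in HDN (0.79 ± 0.21, adjusted p = 0.00861).

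Among the 4 other prostanoid synthesis genes tested, 2 were higher and 2 lower in LDN than in HDN. One of the higher, Ptges2, a membrane-associated prostaglandin E synthase (0.43 ± 0.14, adjusted p = 0.0211), lost its call in 6 of the 19 alternatives (adjusted p up to 0.0876, without LDN replicate 5). Tbxas1, which makes thromboxane A2, averaged 11.7 ± 0.820 CPM in LDN, 5.04 ± 2.26 CPM in HDN and 25.8 ± 4.71 CPM in Naive, and passed the test in each comparison (LDN against HDN 1.21 ± 0.26, adjusted p = 0.00190). Ptges3, a cytosolic prostaglandin E synthase and Hsp90 co-chaperone, was lower in LDN than in HDN (-0.43 ± 0.11, adjusted p = 0.00655). Platelets are rich in Tbxas1 and Ptgs1, and the summed level of 11 platelet markers was 28.7 to 34.0 CPM in LDN, 10.04 to 11.73 CPM in HDN and 114.0 to 125.1 CPM in Naive. Most of it came from Itgb3 in LDN (26.5 CPM) and Naive (113 CPM), and from Itga2b in HDN. Of 6 platelet markers tested, 5 were higher and 1 lower in LDN than in HDN, beside 26.0% and 20.3% of all tested genes. In HDN against Naive 1 was higher and 5 lower, beside 30.0% and 29.9%. Itga2b ran the other way, at 2.31 ± 0.389 CPM in LDN, 6.84 ± 0.910 CPM in HDN and 2.59 ± 0.121 CPM in Naive. The platelet-defining Pf4 averaged 0.314 CPM in LDN, 0.019 CPM in HDN and 0.672 CPM in Naive, and Ppbp 0.529, 0.0338 and 0.600 CPM. The part of these cells in the result was not tested.

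Of 4 other prostanoid receptors tested, 1 was higher and 1 lower in LDN than in HDN. The prostacyclin receptor Ptgir averaged 30.4 ± 7.60 CPM in LDN, 4.03 ± 1.8 CPM in HDN and 49.8 ± 3.67 CPM in Naive. It was higher in LDN than in HDN (2.91 ± 0.28, adjusted p = 4.79e-06) and lower in HDN than in Naive (-3.63 ± 0.29, adjusted p = 1.58e-07), with no overlap. Ptger3, which encodes EP3, had too low a mean level for the rule on named genes and was chosen after its values were seen. Its reads summed to 92 in LDN, 875 in HDN and 9 in Naive, and LDN was below HDN with no overlap (-2.91 ± 0.46, adjusted p = 0.000216).

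All 3 tested genes of prostaglandin transport and inactivation were higher in LDN than in HDN, beside 26.0% of all tested genes. All 3 were lower in HDN than in Naive, beside 29.9% of all tested genes. For Abcc4, which exports prostaglandins, the call in LDN against HDN (0.50 ± 0.15, adjusted p = 0.0168) was lost without LDN replicate 3 (adjusted p = 0.0714) and with the 20 most abundant genes kept out of the library sizes (adjusted p = 0.0777). Ptgr1, a reductase of oxo-prostaglandins that also oxidises leukotriene B4, averaged 21.9 ± 3.17 CPM in LDN, 1.38 ± 0.665 CPM in HDN and 30.4 ± 4.47 CPM in Naive. Its difference between LDN and HDN (3.98 ± 0.30, adjusted p = 7.89e-07) was larger in size than that of any of the 9 genes above, and LDN against Naive did not pass the test (-0.47 ± 0.25, adjusted p = 0.132). Ptgr2, a related reductase, differed by 0.98 ± 0.17 (adjusted p = 0.000475).

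On the leukotriene side, 3 of 4 synthesis partners were higher in LDN than in HDN, beside 26.0% of all tested genes. Mgst2, a microsomal enzyme that can make leukotriene C4, averaged 33.1 ± 6.56 CPM in LDN, 7.06 ± 3.72 CPM in HDN and 86.0 ± 10.7 CPM in Naive. It was higher in LDN than in HDN with no overlap (2.23 ± 0.36, adjusted p = 0.000267). Cotl1, an actin-binding protein that binds the lipoxygenase, was higher in LDN by 0.60 ± 0.18 (adjusted p = 0.0128). None of the 4 other leukotriene receptors on the list, Ltb4r2, Cysltr1, Cysltr2 and Oxgr1, passed the filter on low counts. Basophil and mast cell markers, which mark another source of leukotriene C4, summed to at most 4.22 CPM in any library.

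The genes of leukotriene export and breakdown did not share 1 direction, with 2 of 5 higher and 3 lower in LDN than in HDN. Abcc1, which exports leukotriene C4, was higher (1.35 ± 0.20, adjusted p = 0.000118), with HDN below Naive as well. Ggt1, a glutamyl transferase that turns leukotriene C4 into D4, averaged 833 ± 99.7 CPM in LDN, 295 ± 99.8 CPM in HDN and 8.01 ± 1.25 CPM in Naive, and passed the test in each comparison. Dpep2, a dipeptidase that turns D4 into E4, had 31.8, 50.9, 15.6 and 69.0 CPM in LDN and 74.2, 199.5, 54.7 and 213 CPM in HDN, while Naive libraries held 2 to 4 reads each. Dpep2 was lower in LDN than in HDN, although the groups overlapped (-1.69 ± 0.46, adjusted p = 0.00864). The ratio of its summed reads was 300.7 for LDN against Naive (95% exact interval 175.6 to 565) and 1012 for HDN against Naive (591 to 1901). Ggt5, a related transferase, was lower in LDN than in HDN (-0.75 ± 0.16, adjusted p = 0.00166), and both were above Naive. Cyp4f18, which inactivates leukotriene B4 by hydroxylation, was lower in LDN than in HDN (-0.49 ± 0.19, adjusted p = 0.0467), a call lost in 7 of the 12 fits that left out a library (adjusted p up to 0.124).

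**Figure D4:**
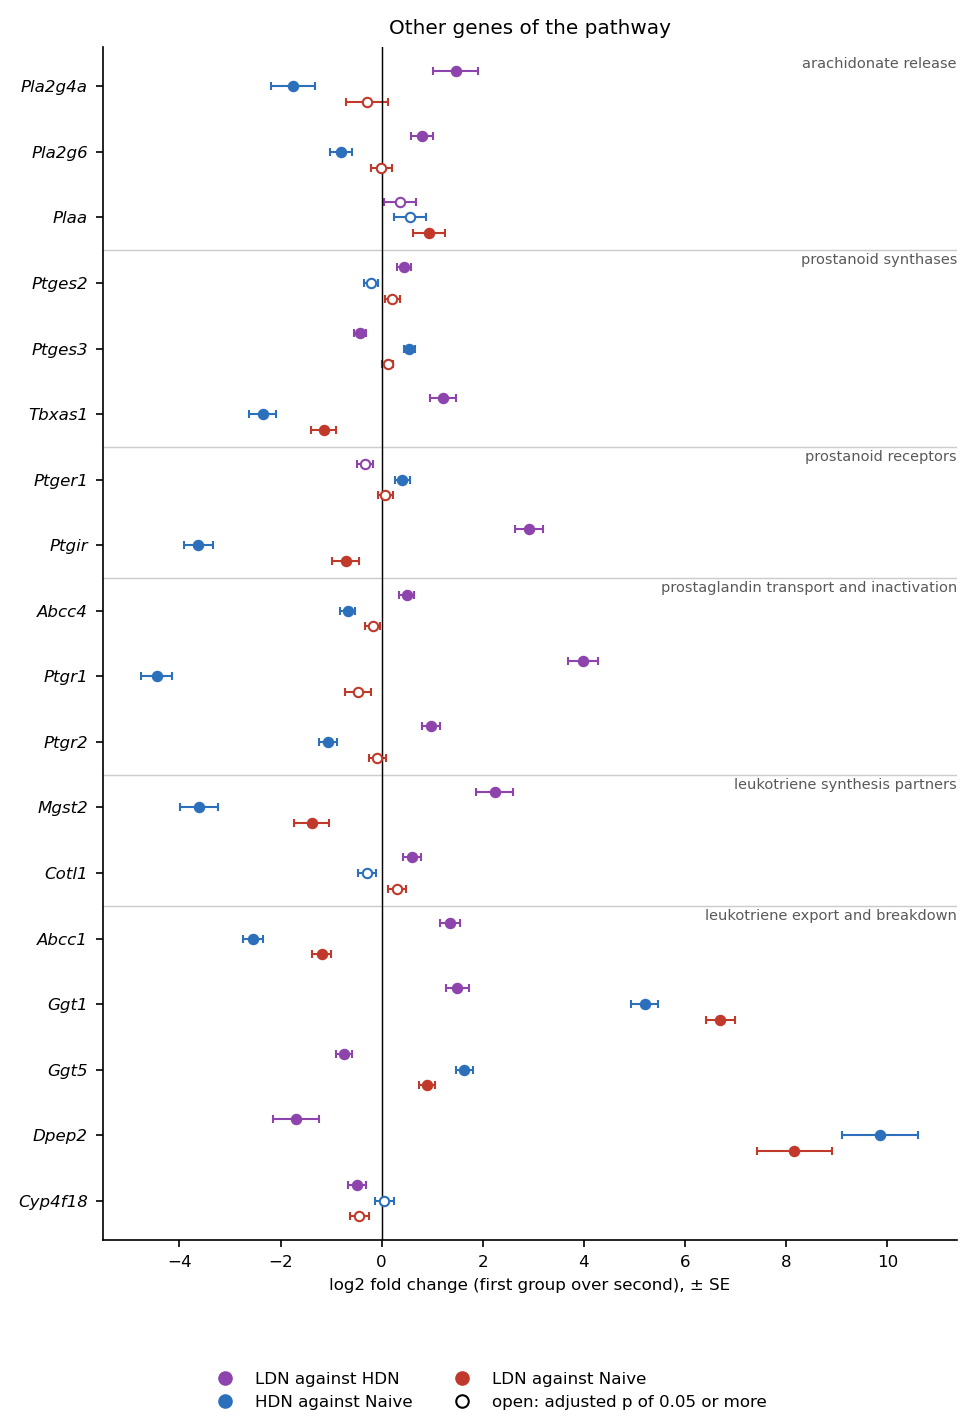
Log2 fold change of 18 other pathway genes in the 3 comparisons, first group over second, with bars of ± 1 standard error, grouped by role, and open circles for an adjusted p of 0.05 or more. Ptgr1, Ptgir and Mgst2 lie well above 0 for LDN against HDN and well below 0 for HDN against Naive, and Ggt1 and Dpep2 lie far above 0 in both comparisons with Naive.

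Markers of other cell types were low beside those of neutrophils. T cell markers summed to 32.3 to 49.0 CPM in LDN, 3.59 to 19.4 CPM in HDN and 192 to 267 CPM in Naive. Cd3d made up most of that sum and set its order of groups, which was that of Ptges and Lta4h. The list as a whole did not share that order. Of 5 T cell markers tested in LDN against Naive, 2 were higher and 2 lower, beside 27.4% and 26.8% of all tested genes. Cd3e averaged 0.718 CPM in LDN, 0.535 CPM in HDN and 0.0876 CPM in Naive, and Cd4 0.696, 0.306 and 0.156 CPM. B cell markers summed to 1.21 to 6.38 CPM in LDN, 0.343 to 2.13 CPM in HDN and 17.4 to 43.8 CPM in Naive. Monocyte and macrophage markers summed to 496 to 654 CPM in LDN, 436 to 688 CPM in HDN and 652 to 878 CPM in Naive, with C1qa and C1qb at 0 in HDN. Eosinophil markers summed to 13.7 to 23.7 CPM in LDN, 40.5 to 86.8 CPM in HDN and 17.3 to 73.5 CPM in Naive. The HDN sum was almost all Siglecf (63.1 ± 21.9 CPM), while Prg2 averaged 0.170 CPM in HDN and 26.1 CPM in Naive, and Epx was at 0 in HDN. Of 6 eosinophil markers tested in HDN against Naive, 1 was higher and 4 lower, beside 30.0% and 29.9% of all tested genes. Their part in the results was not tested.

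Alox15, which makes other oxidised fatty acids and is known from eosinophils, was chosen after its values were seen. It averaged 0.641 ± 0.178 CPM in LDN, 0.168 ± 0.171 CPM in HDN and 4.20 ± 2.73 CPM in Naive, where libraries ran from 1.03 to 7.52 CPM. Both blood groups lay below Naive, LDN by -2.69 ± 0.55 (adjusted p = 0.00103) and HDN by -4.57 ± 0.64 (adjusted p = 3.26e-05). LDN was higher than HDN, although the groups overlapped (1.88 ± 0.70, adjusted p = 0.0419).

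The genes most like each member over the 12 libraries were found by the root mean square difference of centred log2 CPM among 8195 genes, where 0 is an identical profile. Distances of different members are not comparable, since 47.4% of these genes lay within 0.5 of Ptgs1, 34.7% of Ltb4r1, 28.5% of Alox5, 12.1% of Ptger2 and 3.66% of Alox5ap, but 0.903% of Lta4h, 0.598% of Ptges and 0.476% of Ptger4. Ptges was closest to Itgb2l at 0.21 and Sept5 at 0.23, and Lta4h to Gna15 at 0.21 and Abcc5 at 0.24. Between members, Ptges and Lta4h were the closest pair at 0.28. Alox5 lay close to Mlx at 0.05 and Wdr5 at 0.07, Ltb4r1 to Flot1 at 0.09 and Mgrn1 at 0.09, and Alox5ap to Qsox1 at 0.12 and Fam46c at 0.13. Ptger4 was closest to Slc37a2 at 0.23 and Slc25a33 at 0.28, Ptger2 to Tctex1d2 at 0.18 and Dusp7 at 0.23, and Ptgs1 to Taf4a at 0.13 and Nfrkb at 0.13. Ptgs2 had no near neighbour, with Slc39a4 at 1.31 and Dusp2 at 1.5.

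In the authors' deposited table of DESeq2 results the call was the same for 26 of the 27 comparisons of the 9 genes, with no difference in sign. The exception was Ptger2 in LDN against HDN, which had an adjusted p of 0.0284 in the authors' deposited table.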

How the data were processed

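RNA of 12 neutrophil libraries was sequenced after TRIzol and column extraction and stranded polyA library preparation, per the labels' protocols. Per the submitters' processing notes the tools were CASAVA 1.8.2, Trimmomatic, STAR and DESeq2 1.16.1. Neither genome build nor annotation nor the counter's strand setting is given in the sources used here. The authors deposited raw counts per gene symbol, which were analysed as deposited, and 3 tables of their own DESeq2 comparisons. Per the file headers, the tables the authors deposited hold a mean normalised signal, a log2 fold change, a test statistic (a score) and a p-value per gene.

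Counts were tested with edgeR 4.0.16 in R 4.3.3, by a robust quasi-likelihood fit over all 12 libraries with TMM scaling and group as the only term. Genes were called at a Benjamini-Hochberg adjusted p under 0.05 over the 10604 genes that passed the low-count filter by group, which held 99.967% of counts. Fold changes are on the log2 scale and relative to the bulk of genes, and their errors are standard errors. Alternatives used DESeq2 1.42.0, limma 3.58.1, other scalings, no filter, 8 libraries, a replicate block and leaving out each library. Same-numbered LDN and HDN libraries deviated together (correlation over genes 0.315 to 0.76 in 4 pairs, against -0.608 to 0.412 in the 12 others). LDN replicate 5 with HDN replicate 3 reached 0.412. The numbers were taken to pair LDN and HDN libraries only in the replicate block and the differences within pairs. The main fit left pairing out. Naive libraries did not deviate together with blood libraries of the same number. The replicates of a group differed by more than sampling noise in all 18 pairs, but to unequal degrees. The mean chi-square per gene ran from 3.37 for Naive replicates 3 and 4 to 193.5 for HDN replicates 4 and 7. The self-test on simulated counts is not quoted. The 9 genes and all gene lists were chosen with earlier results of these data known. Named genes were the 9, other pathway genes whose mean log2 CPM reached 1 and that had a call in 1 or more comparisons, the 2 genes most like each member, and the markers.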

Additional observations from a re-analysis of the deposited data

Results flagged for a closer look

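In 6 of the 81 groups of 4 libraries examined, 1 library lay far from the other 3 by Dixon's test, where chance gives about 1 in 20. Ptgs2 was at 72.5 CPM in Naive replicate 2, while the other Naive libraries had 45.8 to 48.2 CPM. Ltb4r1 was at 250.7 CPM in HDN replicate 7, while the other HDN libraries had 361.8 to 383.6 CPM. Ltb4r1 was also at 396 CPM in Naive replicate 1, against 322.7 to 326.9 CPM in the other Naive libraries. Abcc4, which exports prostaglandins, was at 37.7 CPM in LDN replicate 3, against 33.2 to 33.9 CPM in the other LDN libraries. Ptgr1 was at 26.62 CPM in LDN replicate 4, against 19.9 to 21.0 CPM in the others. Ptgr2 was at 18.81 CPM in Naive replicate 1, against 24.4 to 25.4 CPM in the others. Without LDN replicate 3, Abcc4 was no longer called in LDN against HDN (0.40, adjusted p = 0.0714).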

How the results depend on the processing

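Of 20 calls for the 9 genes, 19 kept direction and significance under all 19 alternatives, the exception being Ptger2 in LDN against Naive, and of 38 calls for the other named pathway genes 30 did. The number of the 9 genes called was 7 to 8 for LDN against HDN, 6 throughout for HDN against Naive and 6 to 8 for LDN against Naive, and that of the other pathway genes 14 to 22, 17 to 23 and 11 to 15. Keeping the 20 most abundant genes out of the library sizes moved the median of all genes by -0.14, -0.15 and -0.29 in these comparisons. It gave 2245 higher and 2776 lower genes for LDN against HDN, against 2761 and 2153, 2488 higher and 3676 lower for HDN against Naive, against 3177 and 3167, and 1852 higher and 3968 lower for LDN against Naive, against 2910 and 2840. Uncalled values near 0 changed sign in some alternatives. With that scaling Cyp4f18 in HDN against Naive was -0.091, and in LDN against Naive Ptges2 was -0.077, Ptges3 -0.179 and Ptger1 -0.215. With the replicate number as a block Ltb4r1 in HDN against Naive was 0.127, and in LDN against Naive Alox5 was 0.044 and Pla2g6 0.346. Leaving out each library gave -0.284 to 0.024 for Ptgs1 in LDN against HDN. In HDN against Naive it gave -0.114 to 0.076 for Ptgs1, -0.369 to 0.223 for Ptger2, -0.058 to 0.125 for Ltb4r1 and -0.052 to 0.218 for Cyp4f18. In LDN against Naive it gave -0.143 to 0.038 for Pla2g6 and -0.041 to 0.095 for Ptger1. The causes were not tested. The replicate block gave 8 of the 9 genes called in LDN against HDN, adding Ptger2 (-0.66, adjusted p = 0.0113), and among other named genes it added Ptger1 (-0.38, adjusted p = 0.0406). Against Naive, where numbers do not pair libraries, the block gave -5.47 in HDN and -8.70 in LDN for Ptgs2. Ptgs2, with 2 to 9 reads in LDN libraries and 13 to 144 in HDN libraries, had the largest standard error of the 9 genes in each comparison (0.54 to 0.69).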
